A study of Mus musculus with 4 samples.

Results

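Axon guidance receptors and their ligands form a gene module of 59 autosomal genes, and the binding of the transcription factor Pax7 around them was read from a ChIP-seq peak list of iPax7 muscle progenitors. The module holds 14 Eph receptor genes, 7 ephrin genes, 20 semaphorin genes, 7 plexin genes, 3 Slit genes, 4 Robo genes and 4 Unc5 genes, taken by symbol from the protein-coding genes of GENCODE vM1 on mm9 (NCBIM37). A Pax7 peak was assigned to a gene when its summit lay within 50 kb of the transcription start site (TSS), on either side. By this rule 78 distinct peaks of the 20579 in the list belonged to the module, in 79 pairs of a gene and a peak, since 1 peak lay within reach of both Robo3 and Robo4.

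The cells were mouse embryonic stem cell derivatives (A2lox-cre line) in which a single copy of Pax7 cDNA next to Hprt is switched on by doxycycline (Dox). Dox at 1 µg/ml was added on day 3 of differentiation, PDGFRα+FLK1- cells were sorted on day 5 and replated with Dox and bFGF, and the progenitors were harvested on day 9, after 6 days of Dox. The study made 2 Pax7 ChIP libraries and 2 input libraries of these cells, all of the same genotype and treatment, so that the list has no Dox-free control and Pax7 was supplied by a transgene. The authors pooled each pair of libraries before they called peaks. A peak therefore has 1 value and no replicate spread, no test between groups can be made, and every comparison here sets the module beside all genes or all peaks of the list as a description. The peak list carries no read totals, and depth was not used here. It also carries no expression values with which the identity of the cells could be checked.

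Eph receptors are tyrosine kinases that bind ephrins on a neighbouring cell, and both partners can signal on contact. Semaphorins signal through plexins, the secreted class 3 members with neuropilins as co-receptors, Slits bind Robo receptors, and Unc5 proteins are receptors for netrins that mediate repulsion. These families are known for steering growing axons, but they also act in cell sorting, blood vessel growth and the migration of muscle precursors. EphA4 and ephrin-A5, for example, restrict where muscle precursors settle in the limb bud.

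The summits that carry the strongest enrichment at these genes are shown first, as 101 bases centred on each summit, read 5′ to 3′ on the plus strand of mm9. Capitals mark the Pax words searched for on both strands, which were the paired-box core GTCACG, the joined homeobox and paired word ATTAGTCA, and the homeodomain palindromes made of TAAT and ATTA with 2 or 3 bases between. ATTAGTCA ends in the letters that begin GTCACG, so that the first 2 words can overlap. Of the 10 peaks of highest fold enrichment, 4 held a Pax word in this window. The peak near Efna2 was 1 of these 4, and its sequence is not printed because the window overlaps an annotated UTR. The other 9 follow.
Sema3g at chr14:32011069-32011169: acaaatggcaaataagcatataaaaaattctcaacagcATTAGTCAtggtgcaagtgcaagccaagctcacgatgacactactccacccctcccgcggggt
Sema3g at chr14:32050420-32050520: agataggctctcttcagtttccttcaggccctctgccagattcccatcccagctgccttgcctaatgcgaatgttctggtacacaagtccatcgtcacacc
Epha2 at chr4:140830986-140831086: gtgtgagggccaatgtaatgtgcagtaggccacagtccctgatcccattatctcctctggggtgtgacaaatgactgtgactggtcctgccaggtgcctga
Sema4b at chr7:87342794-87342894: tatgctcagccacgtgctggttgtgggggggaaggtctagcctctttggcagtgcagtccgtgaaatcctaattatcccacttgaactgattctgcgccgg
Epha8 at chr4:136521146-136521246: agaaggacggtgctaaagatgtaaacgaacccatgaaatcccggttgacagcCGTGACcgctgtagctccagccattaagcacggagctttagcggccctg
Epha8 at chr4:136527102-136527202: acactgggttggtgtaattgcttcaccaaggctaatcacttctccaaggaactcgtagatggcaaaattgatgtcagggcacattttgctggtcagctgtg
Plxnc1 at chr10:94425850-94425950: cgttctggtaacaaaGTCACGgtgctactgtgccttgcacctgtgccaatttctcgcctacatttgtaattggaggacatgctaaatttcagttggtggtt
Epha4 at chr1:77493422-77493522: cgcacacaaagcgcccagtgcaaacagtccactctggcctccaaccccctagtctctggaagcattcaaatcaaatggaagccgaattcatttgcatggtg
Slit1 at chr19:41771743-41771843: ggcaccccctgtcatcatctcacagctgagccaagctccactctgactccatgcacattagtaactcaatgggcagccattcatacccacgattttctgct

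The joined word was present in 4 of the 78 windows, that of the strongest Sema3g peak above and the 3 below, which were picked after the search. In the Efna5 window a palindrome with 3 bases between overlapped the joined word.
Efna5 at chr17:63232561-63232661: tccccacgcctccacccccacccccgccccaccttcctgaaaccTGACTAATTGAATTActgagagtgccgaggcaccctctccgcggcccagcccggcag
Epha2 at chr4:140901312-140901412: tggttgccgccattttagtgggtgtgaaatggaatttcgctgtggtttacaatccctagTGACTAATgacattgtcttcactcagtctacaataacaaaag
Ephb1 at chr9:102305565-102305665: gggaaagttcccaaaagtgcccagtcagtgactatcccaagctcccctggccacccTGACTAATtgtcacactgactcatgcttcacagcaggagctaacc

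The last 4 windows come from peaks inside member genes but beyond 50 kb of the TSS, picked after their values were seen because 4 of the 5 highest folds in or near the genes of the module were found there.
Epha5 at chr5:84710633-84710733: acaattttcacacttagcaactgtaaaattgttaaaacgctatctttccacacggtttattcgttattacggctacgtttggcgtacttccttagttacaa
Plxna2 at chr1:196583189-196583289: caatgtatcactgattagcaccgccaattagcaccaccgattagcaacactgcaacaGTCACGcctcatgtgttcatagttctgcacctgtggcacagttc
Sema6d at chr2:124438461-124438561: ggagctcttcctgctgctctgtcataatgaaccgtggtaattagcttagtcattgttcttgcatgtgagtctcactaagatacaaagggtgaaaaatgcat
Ephb2 at chr4:136241422-136241522: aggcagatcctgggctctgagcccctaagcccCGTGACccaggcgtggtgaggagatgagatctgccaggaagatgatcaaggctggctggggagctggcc

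Pax7 peaks were spread over most families of the module, and unevenly over its genes. At least 1 peak lay within 50 kb of the TSS of 37 of the 59 genes (62.7%, 95% Wilson interval 50.0 to 73.9%), and the background was 55.2% of all 22225 protein-coding genes. The interval spans the background, and it covers counting error only. Receptors and ligands gave similar shares, 18 of 29 receptor genes (62.1%) and 19 of 30 ligand genes (63.3%). The mean was 1.34 peaks per member gene (exact Poisson interval 1.06 to 1.67) against 1.11 over all genes, and the median was 1 in both. The Poisson interval takes peaks as independent of each other and can be too narrow where they cluster. With peaks of at least 5-fold enrichment alone the order turned, at 37.3% of member genes against 37.8% of all genes.

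At least 4 peaks at 1 gene were found at 6 members. Epha2 had 7 peaks, Sema3g had 5, and Epha4, Efna2, Sema3b and Sema4b had 4 each. These were 10.2% of the module, beside 6.58% of all protein-coding genes with at least 4 peaks. Among the other members 6 genes had 3 peaks, 8 had 2, 17 had 1 and 22 had none.

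**Figure D1:**
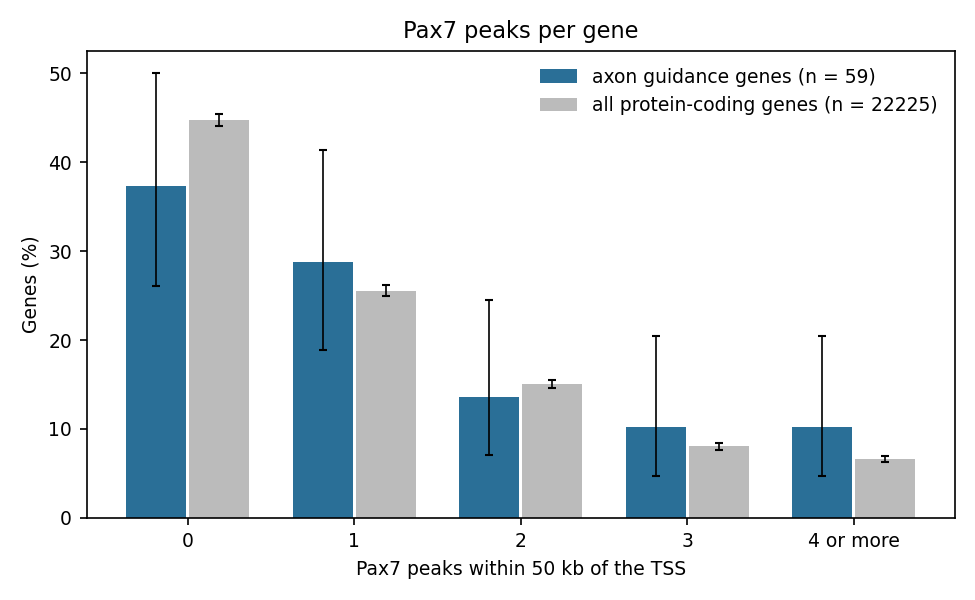
Share of genes (%) by the number of Pax7 peak summits within 50 kb of the TSS, for the 59 axon guidance genes and all 22225 protein-coding genes, with 95% Wilson intervals as error bars. The module had fewer genes without a peak (37.3% against 44.8%) and more with at least 4 (10.2% against 6.58%), and in both classes its interval reaches the background share.

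Among the Eph receptors, 10 of 14 genes had a peak and 23 peaks were assigned. Epha2, a receptor best known from epithelia and tumours, held 7 of these. Fold enrichment is pooled ChIP over local background, as MACS2 reports it. The Epha2 peaks had folds of 11.3, 5.76, 4.64, 6.10, 4.09, 6.12 and 6.51 in order from 26.1 kb upstream to 44.2 kb downstream of the TSS. The strongest lay in intergenic sequence at chr4:140830877-140831193, 3 lay in introns of Epha2, and 6 of the 7 had the Epha2 TSS as the nearest protein-coding start. The exception, 44.2 kb downstream, lay nearer to Fam131c, and it is the Epha2 peak with the joined word. Over the whole list 99.5% of protein-coding genes had fewer peaks than Epha2.

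Epha4, which binds ephrins of both classes and guides limb motor axons, had 4 peaks. Their folds were 4.80 and 6.44 at 41.3 and 40.0 kb upstream, and 8.22 and 8.89 at 3.74 and 18.2 kb downstream, in introns of the gene. Both intronic peaks were above both upstream peaks. The stronger 1, at chr1:77493267-77493637, held no Pax word in its window. All 4 had Epha4 as the nearest start, and no other protein-coding TSS lay within 50 kb of the Epha4 TSS.

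Epha8, another receptor for A-class ephrins, had 3 peaks, all upstream. The nearer pair reached 10.4-fold at 8.47 kb (chr4:136520905-136521352) and 10.2-fold at 14.4 kb (chr4:136526983-136527292), and the third was a 6.08-fold peak 48.0 kb away in an intron of Zbtb40. Epha8 was thus a gene with 2 peaks of over 10-fold, as was Sema3g. The nearer of the pair held the paired-box core, with its centre 4.5 bp from the summit, and the other held no Pax word.

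Of the B-class receptors, 4 of 5 genes had exactly 1 peak each. Ephb1, whose peak 48.6 kb upstream reached 7.05-fold, had the strongest and carried the joined word 9.5 bp from the summit. The Ephb4, Ephb3 and Ephb6 peaks stood between 4.71 and 5.23-fold. Ephb6, a receptor whose kinase domain is inactive, had its peak 45.1 kb upstream and nearer to Prss2. Epha10, whose kinase is also inactive, had 2 peaks at 7.81 and 5.39-fold, and the weaker had its summit on the TSS of Yrdc. Epha1 had a 2.97-fold peak 22.9 kb upstream beside a promoter peak, and Epha3 had 1 peak of 3.84-fold at 7.63 kb upstream.

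Among the ephrins, the ligands of these receptors, 3 of 7 genes had a peak. Efna2, a ligand tethered to the membrane by a lipid anchor, had 4 peaks of 3.26, 4.73, 3.93 and 12.3-fold. The strongest, at chr10:79689138-79689429, lay 47.0 kb downstream of the Efna2 TSS but 94 bp from the TSS of Mum1, and 6 other protein-coding starts lay within 50 kb of Efna2. Efna5, which encodes ephrin-A5, had 1 peak of 6.63-fold, and it lay 1.95 kb upstream of the TSS with Efna5 as the nearest start. The 3 peaks assigned to Efnb3, a transmembrane ligand of the midline, had 5.56, 5.72 and 3.81-fold enrichment and lay at Trp53 and Wrap53, with 1 of them 98 bp from the Trp53 TSS.

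**Figure D2:**
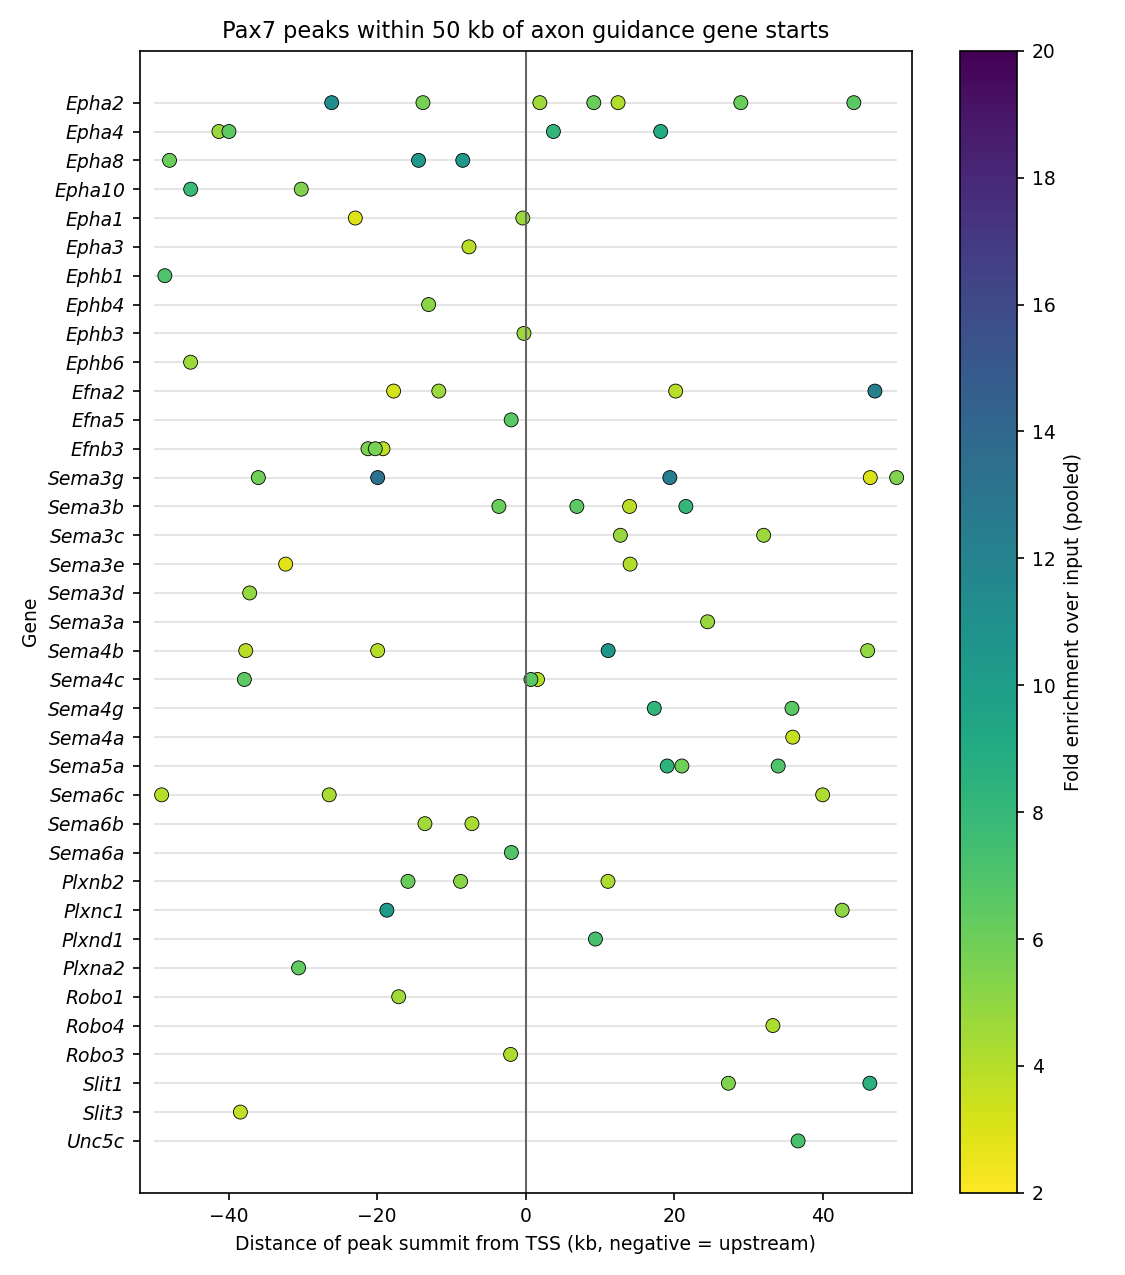
Distance of each Pax7 summit from the TSS (kb, upstream negative) for the 37 genes with a peak, with 1 row per gene. Colour gives pooled fold enrichment over local background, labelled as over input. Epha2 carries 7 peaks on both sides of its TSS, the 2 strongest peaks belong to Sema3g, and only 3 genes have a summit within 1 kb.

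Semaphorins held the most peaks, 34 at 14 of 20 genes. The secreted class 3 had 15 peaks at 6 of 7 genes, with Sema3f as the exception. Sema3g, an endothelial class 3 semaphorin, had the highest fold of the module, 13.3 at chr14:32010915-32011285 (−log10 q of 69.4), 19.9 kb upstream in introns of the overlapping genes Nisch and Tnnc1. Its second peak reached 12.3-fold at 19.4 kb downstream (chr14:32050312-32050683), and the other 3 had 5.88, 3.00 and 5.48-fold enrichment. None of the 5 had Sema3g as the nearest start, and which gene a peak acts on was not tested. The 13.3-fold peak ranked 406 in the list by fold.

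Sema3b, a secreted semaphorin studied as a tumour suppressor, had 4 peaks of 6.08, 6.52, 3.84 and 8.02-fold, the strongest of them 72 bp from the TSS of Ifrd2. Sema3a, Sema3c, Sema3d and Sema3e, long genes that all lie on chromosome 5, had 1 or 2 peaks each near the TSS. Their 6 peaks were between 2.80 and 4.88-fold, all below the median of all peaks in the list. Sema3a encodes the classical repellent that acts through neuropilin 1, and Sema3e signals through plexin D1 directly.

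Among the transmembrane semaphorins of class 4, 4 of 6 genes had a peak. Sema4b had 4 peaks, and the one in its own intron 11.1 kb downstream (chr7:87342707-87343008) reached 10.6-fold, while the other 3 stood at 3.84, 3.98 and 4.94-fold. Sema4c, a ligand of plexin B2, had 3 peaks at 6.48, 6.63 and 4.01-fold. The middle one was the widest peak of the module, 748 bp (chr1:36613924-36614671), with its summit in a Sema4c intron 713 bp from the TSS. Sema4g had peaks of 8.25 and 6.63-fold, the first 11 bp from the TSS of Mrpl43. Sema4a had 1 peak of 3.60-fold, 64 bp from the TSS of Slc25a44.

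Sema5a, which carries thrombospondin repeats, had 3 intronic peaks of 8.39, 5.88 and 6.94-fold, between 19.1 and 34.0 kb downstream of the TSS. These 3 were the only peaks assigned to class 5, since Sema5b had none. Of class 6, whose members bind A-type plexins, Sema6c had 3 peaks of 3.97, 4.32 and 4.19-fold, none with Sema6c as the nearest start. Sema6b had 2 upstream peaks of 4.55 and 4.35-fold, and Sema6a had 1 peak of 6.87-fold 1.92 kb upstream. Sema7a, the only class 7 gene, had no peak, whereas its receptor gene Plxnc1 had 2.

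Plexin genes had 7 peaks at 4 of 7 genes. Plxnc1 had the strongest, 10.1-fold at 18.7 kb upstream (chr10:94425739-94426074), with a paired-box core 32.5 bp from the summit, and a 5.06-fold peak in its own intron. Plxnb2, the receptor for Sema4c, had 3 peaks of 6.14, 5.21 and 4.21-fold, and the first lay 154 bp from the TSS of Fam116b. The first 2 both held a paired-box core, with centres 2.5 and 4.5 bp from their summits. Plxnd1 had 1 intronic peak of 7.32-fold and Plxna2 had 1 upstream peak of 6.40-fold.

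A peak within 50 kb of the TSS was found at 2 of 3 Slit genes, with 3 distinct peaks, and at 3 of 4 Robo genes, with 2. Both families are too small to be set apart from the background of 55.2%. Slit1 had 2 intronic peaks of 5.41 and 8.54-fold at 27.3 and 46.4 kb downstream, the second at chr19:41771691-41771929, and Slit3 had 1 of 3.73-fold. Robo1 had 1 peak of 4.54-fold at 17.1 kb upstream. Robo3, which lets commissural axons cross the midline, and Robo4, a receptor of endothelial cells, shared a 4.19-fold peak that lay 2.02 kb upstream of Robo3. Of the 4 Unc5 genes only Unc5c had a peak, 7.20-fold in its first 50 kb (36.7 kb downstream). Its window held a palindrome with 3 bases between.

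Peaks of at least 10-fold were present at 6 genes, Sema3g, Efna2, Epha2, Sema4b, Epha8 and Plxnc1, or 10.2% of the module beside 6.83% of all protein-coding genes. The 78 peaks ranged from 2.80 to 13.3-fold the median being 5.45 and the quartiles 4.33 and 6.81. The median of all 20579 peaks was 5.22, and 10.3% of the module's peaks against 6.99% of all peaks were at least 10-fold. Peak width was also alike, with medians of 248 and 252 bp.

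Few of the peaks lay at the promoter of the member gene itself. A summit within 1 kb of its TSS was found at 3 genes, 5.08% of the module, while 11.8% of all protein-coding genes had one. These 3 peaks were that of Sema4c described above, a 4.71-fold peak 380 bp upstream of Epha1 and a 4.71-fold peak 223 bp upstream of Ephb3. None of the 3 held a Pax word within 50 bp of its summit. The 3 peaks were 3.80% of the 79 pairs against 11.4% of the 24616 pairs over all genes, and the median distance was 20.2 kb against 22.9 kb. Counting the start of any protein-coding gene, 14 of the 78 summits (17.9%) lay within 1 kb of one, 11 of them at another gene, against 21.8% of all peaks within 50 kb of a protein-coding TSS. In the middle range from 10 to 25 kb lay 36.7% of the module's pairs and 26.1% of all pairs.

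By annotation 34 of the 78 summits were intronic, 22 of them in the member gene itself, 35 were intergenic, 7 lay in UTR exons and 2 in coding exons. These shares of 43.6, 44.9, 8.97 and 2.56% stood beside 44.3, 42.4, 6.56 and 2.37% of all peaks within 50 kb of a protein-coding TSS. For 46 of the 79 pairs (58.2%) the member gene was the nearest protein-coding start, against 46.0% of all pairs. The other 33 pairs were nearer to another gene, and among genes with 3 or more peaks this held for every peak at Efnb3, Sema3g and Sema6c. At the edge of the window, the outermost peak counted was the 5.48-fold peak 50.0 kb from Sema3g, and the next peak beyond was an 8.54-fold peak 50.5 kb from Sema3e.

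Gene length differed between the module and the background, and the counts were therefore also split by length. The median member gene was 46.3 kb long against 15.5 kb over all protein-coding genes, and it had 0 other protein-coding starts within 50 kb against 2. Classes of length were set after the counts were known. Of the 30 member genes under 50 kb, 21 had a peak (70.0%, Wilson interval 52.1 to 83.3%, background 54.5%). The interval spans the background. The mean in this class was 1.80 peaks against 1.10. Here the order of the neighbour counts turned, with a median of 3 other protein-coding starts within 50 kb of member genes against 2. Of the 7 between 50 and 150 kb, 3 had a peak (42.9%, background 59.7%), and of the 22 over 150 kb, 13 had a peak (59.1%, background 53.4%). For all genes of at least 50 kb the share was 55.2% in the module and 57.8% in the background, so that the sign of the difference was not the same at every length.

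Most summits inside the member genes lay beyond 50 kb of the TSS, as does most of the length of genes over 150 kb. The gene bodies held 85 summits, 63 of them beyond 50 kb of the TSS in 21 genes. These counts were added after the first results were known, and the matching share over all genes was not counted. A body peak was present in 27 of 59 genes (45.8%, background 22.3%), but among the 22 genes over 150 kb the share was 81.8% against 77.3%. Per megabase the bodies held fewer summits than the background, 8.73 against 10.6 over all lengths and 7.92 against 9.92 over 150 kb. The values under 50 kb (14.0 against 11.3) and from 50 to 150 kb (13.1 against 11.3) were higher. They rest on only 9 and 10 summits. A peak in the body or within 50 kb of the TSS was found at 43 of 59 genes (72.9%, background 57.9%), and at 19 of 22 over 150 kb (86.4%, background 81.4%).

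The strongest peak in or near any of the 59 genes lay far from a TSS. As a set, the body peaks beyond 50 kb were not stronger than the list, with a median fold of 4.88 against 5.22. Inside Epha5, a receptor of the developing brain with no peak within 50 kb of its TSS, a 19.4-fold peak (−log10 q of 126) lay in an intron 136 kb from the TSS at chr5:84710468-84710938, rank 47 of the list. It was 1 of 4 peaks within a stretch of the Epha5 gene body from 118 to 153 kb downstream of the TSS, and the other 3 were between 3.52 and 4.86-fold. Its window, printed above, held none of the Pax words. Plxna2 had a 14.7-fold intronic peak 137 kb from its TSS (chr1:196582737-196583642), which held the paired-box core.

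Further strong peaks inside genes were at Sema6d, with 13.8-fold at 523 kb, at Ephb2, with 12.9-fold at 150 kb and a paired-box core in the window, and at Slit3, with 10.5-fold at 245 kb. Sema6d and Ephb2 had no peak within 50 kb of the TSS. Sema3a had 7 body peaks, the most of the module, between 3.84 and 6.45-fold, and 6 of them lay between 259 and 425 kb from the TSS. Robo1 had 6 body peaks between 3.70 and 6.70-fold. The 4 peaks of Slit2 stood between 2.98 and 5.09-fold.

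**Figure D3:**
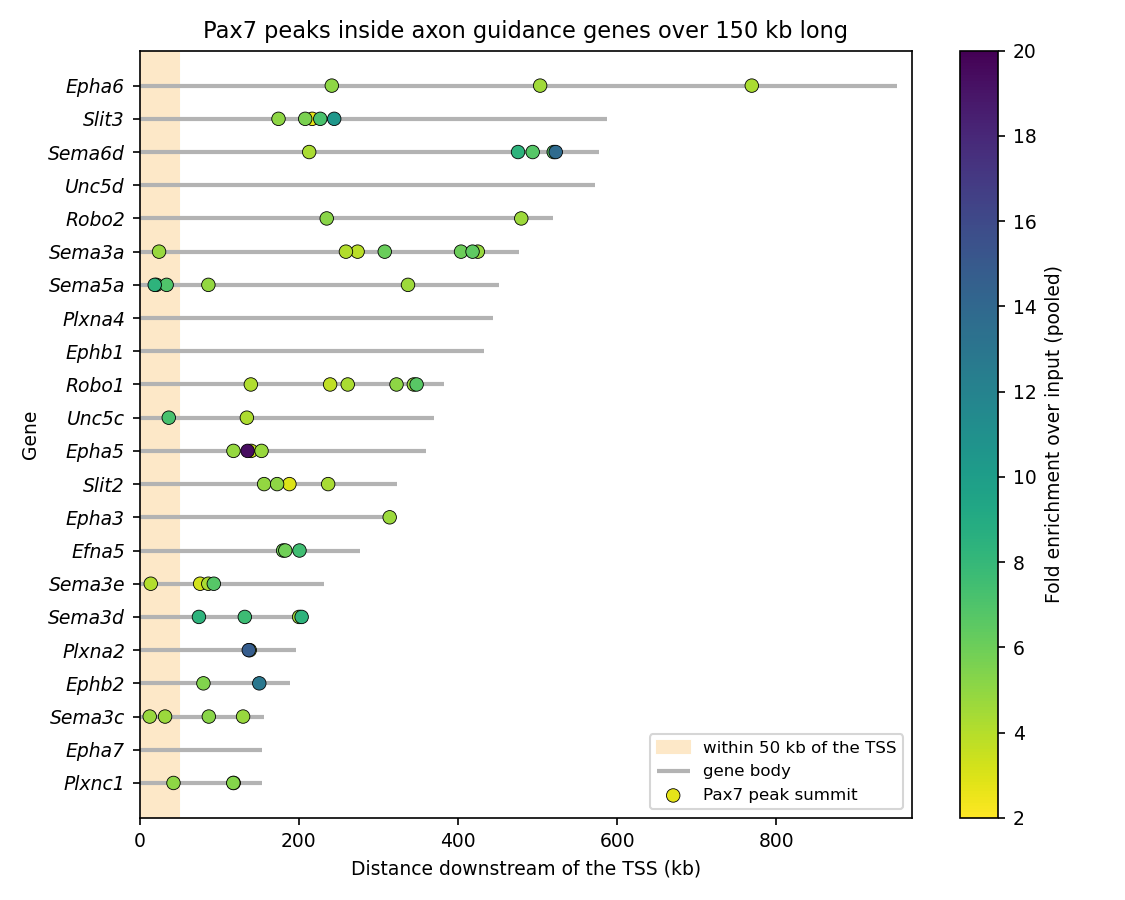
Pax7 summits inside the 22 axon guidance genes over 150 kb long, by distance downstream of the TSS (kb). Grey lines are gene bodies and shading marks the first 50 kb. Colour gives pooled fold enrichment over local background, labelled as over input. Most summits, like most of the gene length, lie beyond the shaded part. The 19.4-fold peak of Epha5 is the darkest, and Unc5d, Plxna4, Ephb1 and Epha7 have none.

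The 22 genes without a peak within 50 kb were Epha5, Epha6, Epha7 and Ephb2 among the receptors for ephrins, and Efna1, Efna3, Efna4 and Efnb2 among the ephrins. Efnb2 encodes ephrin-B2, the partner of EphB4 between arteries and veins. The semaphorins without one were Sema3f, Sema4d, Sema4f, Sema5b, Sema6d and Sema7a, and the plexins were Plxna1, Plxna4 and Plxnb1, the last of which is the receptor for Sema4D. The remaining 5 were Robo2, Slit2, Unc5a, Unc5b and Unc5d. Of the 22, Epha5, Epha6, Ephb2, Sema6d, Robo2 and Slit2 had a peak in the gene body, and 16 had none there either. A gene absent from the list is one without a called peak, since the list holds only peaks past the calling threshold.

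Pax words were found in 18 of the 78 windows (23.1%, 95% Wilson interval 15.1 to 33.6%) and in 15.4% of the windows of all peaks. In windows of the same width 500 bp to the left and right of the summit the share was 1.28 and 3.85% for the module and 2.05 and 2.25% for all peaks, and in both sets the share was highest at the summit. The control word GCACTG was present in 8.97% of the module's summit windows and in 8.97 and 6.41% of its flanks, against 6.86, 5.79 and 5.84% over all peaks. The paired-box core accounted for most, with 13 windows (16.7% against 11.1%). The joined word was in 4 (5.13% against 2.94%), the palindrome with 3 bases between in 2 (2.56% against 0.991%) and that with 2 bases between in 0 of 78, which allows a share of up to 3.85% by the rule of 3 counts of the total (0.831% over all peaks).

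The words were also counted by peak strength. Of the 44 peaks of at least 5-fold, 16 did (36.4%, 95% Wilson interval 23.8 to 51.1%), and of the 34 weaker peaks 2 did (5.88%, interval 1.63 to 19.1%). Over the whole list a word was held by 17.8% of peaks of at least 5-fold and by 12.4% of weaker peaks. Base composition differed as well, with a median GC content of 51.5% in the module's windows against 45.5%, and no CpG in 10.3% against 20.7%. The paired-box core contains a CpG and cannot occur in a window without one, and the part of composition in these shares was not tested. A word found here is a match of letters only.

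**Figure D4:**
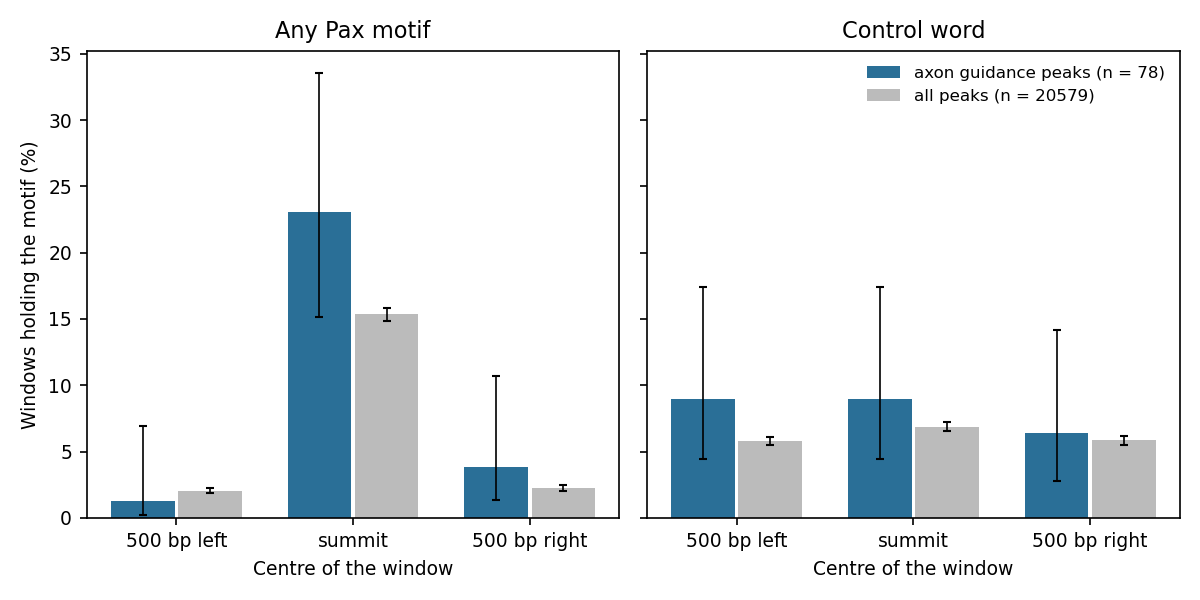
Share of windows of 101 bp (%) that hold any Pax word (left panel) or the control word (right panel), centred on the summit or 500 bp to either side, for the 78 axon guidance peaks and all 20579 peaks, with 95% Wilson intervals as error bars. The Pax words reach 23.1 and 15.4% at the summit and stay under 4% in the flanks, and the control word stays between 5.79 and 8.97% everywhere.

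Other genes of these pathways, 42 netrins, co-receptors, FLRT and RGM ligands and cytoplasmic effectors outside the families above, gave a like share. A peak lay within 50 kb of 27 of them (64.3%), with a mean of 1.67 peaks per gene, beside the same background of 55.2%. Flrt1, an adhesion protein of the family that repels Unc5 axons, had 9 peaks, more than any gene of the module. The highest reached 12.9-fold with Flrt1 as the nearest start. Several of the others, the 6.96-fold peak 47.9 kb downstream among them, lay nearer to Macrod1. Rgmb, a ligand of neogenin and a co-receptor for BMPs, had 6 peaks of 4.01 to 7.35-fold, and 1 of them lay 23 bp from its TSS.

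Ntn5, Enah, Mical3, Mical1 and Rgma had 4 peaks each. Enah, a regulator of actin filament growth, reached 10.3-fold 39.7 kb downstream of its TSS, and Ntn5 reached 11.0-fold at a peak nearer to Dbp. Mical1 and Mical3, enzymes that oxidise actin downstream of plexins, had maxima of 6.10 and 8.36-fold. None of the Mical1 peaks had Mical1 as the nearest start, whereas all Mical3 peaks had Mical3. Nrp2, the co-receptor for several class 3 semaphorins, had 3 peaks of 10.7, 9.59 and 4.74-fold, all with Nrp2 as the nearest start. Ntn4, Dpysl3 and Dpysl5 had 3 peaks each with maxima between 5.90 and 6.91-fold, and 15 of the 42 genes had none. Dscam, counted here among the netrin receptors, had 1 peak 25.7 kb downstream of its TSS. At 17.0-fold it was the strongest peak of the 42 genes.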

How the data were processed

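The data were 2 Pax7 ChIP and 2 input libraries of iPax7 progenitors. The authors aligned single-end reads to mm9 with bowtie2, kept unique reads, removed duplicates with Picard, merged the libraries of each kind and called peaks with MACS2 on the merged ChIP against the merged input. The deposited list gives for each peak a fold enrichment (a ratio of ChIP to local background), −log10 p-values and q-values, a score and the summit offset, and only fold, −log10 q and the summit position were used. Pooling removes replicate spread, so no test was made, and weak sites under the caller's threshold are missing. The peak list holds no read totals, and library depth was not used here.

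Genes came from GENCODE vM1 (NCBIM37), 1 record per symbol (the longest), and the TSS was the 5′ end of the record. The 3 X-linked genes of these families were left out by the autosomal rule, and Unc5a to Unc5d were counted as members. Distances and counts used Python 3.11.15 with pandas 2.3.3, SciPy 1.17.1 (Wilson and exact Poisson intervals) and pysam 0.24.0, and were checked on simulated data. The members and gene lists were chosen with earlier results of these data known. Genes named with values were, in each family, the one with most peaks, every gene with 4 or more peaks, the 10 peaks of highest fold and peaks within 1 kb of a TSS, and of the other pathway genes those with 3 or more peaks. Genes and sequences named beyond this rule were chosen after their values were seen. Alternatives changed the distance, the TSS, the peak threshold, the merging of peaks, the background and the motif window.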

Additional observations from a re-analysis of the deposited data

How the results depend on the processing

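No paired analysis was possible because the deposited peaks were called on pooled libraries, so leaving out a library was not possible either. With 25 kb in place of 50 kb, 44.1% of member genes had a peak (background 38.7%), with 46 peaks and a mean of 0.780 per gene. With 100 kb these were 76.3% (background 71.7%), 146 and 2.53. With the TSS of any annotated transcript the mean was 1.93. With peaks of at least 5-fold alone, 22 genes (37.3%) had a peak, with 44 peaks, a mean of 0.746 and a median fold of 6.63, the difference from the background was -0.534 points instead of 7.48, and 36.4% of the peaks held a Pax motif. Among genes of at least 50 kb the difference was -2.65 points. The smaller and larger counts follow from the narrower or wider choice itself, and the cause of the 2 turned signs was not tested. The difference was 10.2 points without the Unc5 genes, 9.44 among genes with no other coding start within 50 kb, 14.9 with any transcript start and 5.89 against autosomal genes, and 8.10 when every record of a symbol was counted, an alternative added after seeing the data because Efna5 has 2 records. In all, 45 of 60 values from the alternatives stayed within the error of the reported value or, for counts, within 1.5 times it.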

Other observations

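Equal values recurred throughout the list. The peaks 380 bp upstream of Epha1 and 223 bp upstream of Ephb3, the Ephb6 peak and 1 of the 2 Sema3c peaks all had a fold of 4.71 and a −log10 q of 7.67, and 261 peaks of the whole list had this pair of values. Of the 20579 peaks, 93.6% shared both values with at least 1 other peak, and among the 78 peaks of the axon guidance genes 75 did. An order among peaks with equal values cannot be given.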
